A study of Drosophila melanogaster with 6 samples.

Results

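The genes examined were 10 genes of the cytoskeleton, of energy metabolism and of protein folding and turnover that are transcribed strongly in most fly cells: the actin genes Act5C and Act42A, the tubulin genes alphaTub84B and betaTub56D, the glyceraldehyde-3-phosphate dehydrogenase genes Gapdh1 and Gapdh2, the heat shock protein genes Hsp83 and Hsc70-4, and the polyubiquitin genes Ubi-p63E and Ubi-p5E. They were chosen by name from 18358 annotated genes and not by a peak score of their own, but with earlier results of these data known. The question was whether strong transcription alone goes with a Cyclin G peak, as peaks are frequent at the genes of cytoplasmic ribosomal proteins. Each gene was scored by whether a transcription start site (TSS) lay inside a deposited peak, whether a peak touched the gene body only, or neither.

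Actin forms the microfilaments and alpha- and beta-tubulin pair to build microtubules. Glyceraldehyde-3-phosphate dehydrogenase catalyses a step of glycolysis, Hsp83 is the fly Hsp90 and Hsc70-4 a constitutive Hsp70, and polyubiquitin genes encode head-to-tail repeats of ubiquitin, the tag that marks proteins for degradation. RNA polymerase II starts at core promoters of different kinds: some carry a TATA box a short way upstream of the start, many broadly used fly genes carry a DNA replication-related element (DRE) or Motifs 1, 6 and 7, and ribosomal protein genes typically start in a pyrimidine-rich TCT initiator. Cyclin G belongs to the cyclins that act in transcription and has genetic and physical ties to Polycomb-type regulators of chromatin.

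The data came from chromatin immunoprecipitation followed by sequencing (ChIP-seq) in wing imaginal discs, the larval precursors of the wings, of females in the third larval instar, raised at 25 °C without further treatment. The discs carried UAS-Myc-CycGΔP and da-Gal4, a driver active in nearly all cells, and so made a Myc-tagged Cyclin G that lacks its PEST-rich C-terminal domain. Of the 6 libraries, 2 were Myc-CycGΔP ChIP replicates, 2 their inputs, 1 a mock ChIP with the same anti-Myc antibody on discs of da-Gal4/+ larvae, in which no Myc-CycGΔP is made, and 1 its input. Each ChIP pooled 600 discs, so a library represents many animals and all cell types of the disc. Library preparation started from 38 ng for Myc-CycGΔP samples with reads of 75 bp, but from 5 ng for mock samples with reads of 50 bp, so that genotype and preparation cannot be told apart between them. The deposited result was 1 list of 3363 peaks for both Myc-CycGΔP replicates together, each with a start and an end and no height, score or value per sample. No comparison between replicates or against the mock could therefore be made, the sequencing depth behind a peak is unknown, and a gene without a peak may still have had a signal under the threshold of the caller. Transcript levels were not measured in this series, so that "strongly transcribed" is background knowledge about these genes, and a peak list gives no marker levels with which to check the tissue.

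Peaks covered the start of alphaTub84B and the most upstream start of Hsc70-4, and the sequences under both peaks are shown because they are the only member promoters that were bound. They were read from the RefSeq sequence of the dm6 build, on the strand of the gene, from 5′ to 3′. Capitals mark matches to the searched motifs: TATATAAA holds the TATA box words TATATA and TATAAA, overlapping, CTCTC is the GAGA word GAGAG on the other strand, and GAACGTTC matches the heat shock element word GAANNTTC. The alphaTub84B run is the whole peak of 264 bp at chr3R:7086354-7086617 (+ strand), and its TSS is the base at 7086599. The Hsc70-4 run holds the last 265 of the 303 bp of its peak, at chr3R:15242438-15242702 (+ strand), with the TSS at 15242687.
alphaTub84B: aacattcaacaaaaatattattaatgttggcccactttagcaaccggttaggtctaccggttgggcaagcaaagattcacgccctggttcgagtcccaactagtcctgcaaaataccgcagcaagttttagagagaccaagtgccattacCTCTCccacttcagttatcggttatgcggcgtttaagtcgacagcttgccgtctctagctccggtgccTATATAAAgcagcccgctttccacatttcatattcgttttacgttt
Hsc70-4: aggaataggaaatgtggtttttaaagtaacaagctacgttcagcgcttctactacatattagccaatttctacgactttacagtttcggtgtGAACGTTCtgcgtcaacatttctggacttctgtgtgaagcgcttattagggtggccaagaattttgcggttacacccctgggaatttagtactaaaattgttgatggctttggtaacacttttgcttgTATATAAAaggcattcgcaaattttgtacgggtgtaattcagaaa
Both sequences held the same 8 letters TATATAAA at nearly the same distance from the start, with the TATA box words beginning at -27 and -25 in alphaTub84B and at -29 and -27 in Hsc70-4, where the TSS is 0. The GAGA match of alphaTub84B began at -95, and a second GAGAG at -115 is in lower case because it lies outside the window of 100 bp. The heat shock element word of Hsc70-4 began at -157. Neither sequence held a DRE (TATCGATA) or a TCT initiator in the searched windows.

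For comparison, promoters of the unbound members Act5C, Gapdh2, Ubi-p63E and Ubi-p5E are shown from 100 bases before the TSS to 20 bases after it. Those of the unbound Act42A, betaTub56D, Gapdh1 and Hsp83 are not printed. The promoters of RpS27A and RpL40, which each encode a single ubiquitin unit fused to a ribosomal protein, are shown as well. Capitals again mark the TATA box and GAGA words, and in RpS27A and RpL40 also the TCT initiator, which is CTTT with a pyrimidine for both bases on each side, and Motif 6. The runs lie at chrX:5900761-5900881 (+ strand), chrX:15868045-15868165 (+ strand), chr3L:3903164-3903284 (- strand), chrX:6279627-6279747 (- strand), chr2L:10408252-10408372 (+ strand) and chr2L:4227599-4227719 (+ strand) of dm6.
Act5C: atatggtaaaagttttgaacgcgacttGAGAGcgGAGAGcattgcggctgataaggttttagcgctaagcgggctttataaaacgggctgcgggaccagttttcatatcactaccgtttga
Gapdh2: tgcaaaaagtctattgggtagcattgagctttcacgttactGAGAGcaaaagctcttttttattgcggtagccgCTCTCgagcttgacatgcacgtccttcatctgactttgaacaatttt
Ubi-p63E: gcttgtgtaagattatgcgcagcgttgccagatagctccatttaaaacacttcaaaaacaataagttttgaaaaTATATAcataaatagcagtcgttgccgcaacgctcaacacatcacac
Ubi-p5E: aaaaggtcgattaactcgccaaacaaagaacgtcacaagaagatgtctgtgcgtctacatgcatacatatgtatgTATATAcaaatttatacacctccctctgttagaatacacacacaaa
RpS27A: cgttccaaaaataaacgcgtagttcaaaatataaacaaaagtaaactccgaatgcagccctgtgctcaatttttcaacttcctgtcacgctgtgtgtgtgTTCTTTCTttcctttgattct
RpL40: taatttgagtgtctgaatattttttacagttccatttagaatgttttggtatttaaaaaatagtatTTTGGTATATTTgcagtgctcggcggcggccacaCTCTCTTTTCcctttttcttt
The unbound polyubiquitin promoters carried a TATA box word at -26 in Ubi-p63E and at -25 in Ubi-p5E, the same place as in the bound promoters. Act5C held TATAAA from -24 to -19, which ends 1 base outside the window of 20 to 40 bp upstream and is therefore in lower case. Gapdh2 showed GAGA words and no TATA box. The start of RpS27A lay in a peak and that of RpL40 did not, although both held a TCT initiator at or near the start, which in RpL40 overlaps a GAGA word on the other strand.

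In all, 2 of the 10 genes had a TSS inside a peak, 0 had a peak in the gene body only and 8 had neither. The share of 20% has a 95% Wilson interval of 5.67% to 51.0%, against 4.94% of all 18358 annotated genes (907 genes) and 5.68% of the 13986 protein-coding genes (795 genes). Overlap by at least 1 bp, which includes gene bodies, also gave 2 genes, beside 6.61% of all annotated genes. The interval is wide, so that 10 genes give little precision, and as they were not a random sample its ends are no test against these shares. Of the 10, 8 have more than 1 annotated start. Among the 3700 protein-coding genes with 2 or more starts, 8.08% had a start inside a peak. Counted by start, 2 of the 24 annotated starts of these genes lay in a peak. No share over all annotated starts was computed, and the shares per gene are no measure for this count.

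The bound tubulin gene, alphaTub84B (FBgn0003884), encodes a major alpha-tubulin and lies at chr3R:7086599-7088839 on the + strand with 1 annotated start. Its peak reached from -245 to 18 bp relative to the TSS, with its centre at -113.5 bp. Of the peak, 92.8% lay upstream of the start in the intergenic interval, and its 19 transcribed bases lay in the first exon, before the coding sequence, which begins 143 bp from the start. The divergent neighbour Tailor, which encodes a terminal uridylyltransferase, starts 516 bp away, 271 bp beyond the edge of the peak, and its start was not covered.

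The bound chaperone gene, Hsc70-4 (FBgn0266599), encodes the constitutive Hsp70 of the cytosol and lies at chr3R:15242687-15246614 on the + strand with 6 annotated starts. Its peak at chr3R:15242400-15242702 reached from -287 to 15 bp relative to the first start, with its centre at -136 bp and 94.7% of its length upstream. It held 16 transcribed bases and no coding base of any annotated transcript. The other 5 starts lay 188, 454, 496, 1517 and 1554 bp beyond the peak, so that a single start of the gene was covered. The divergent gene tefu, which encodes the fly ATM kinase, starts 451 bp away and 164 bp beyond the peak.

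**Figure D1:**
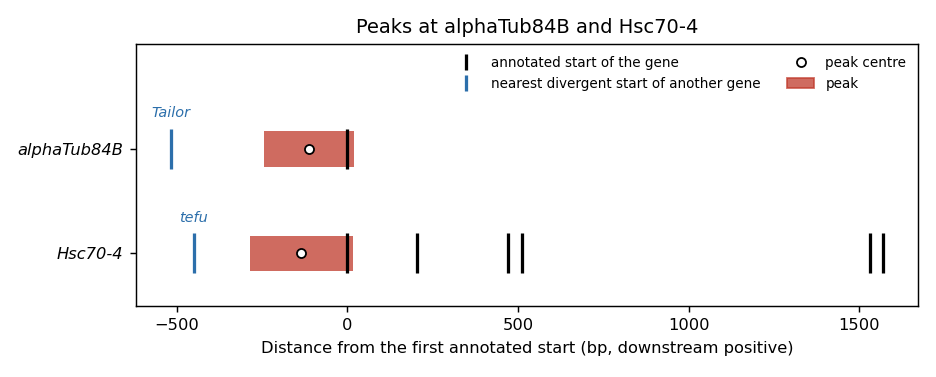
Extent of the peaks at alphaTub84B and Hsc70-4 along the distance from the first annotated start in bp (downstream positive); red bars are peaks, open circles their centres, black marks the annotated starts of the gene and blue marks the nearest divergent start of another gene. Both peaks end 18 and 15 bp past the first start and cover neither the downstream starts of Hsc70-4 nor the starts of Tailor and tefu.

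Both peaks were centred upstream of the start, as were 95.8% of the 673 protein-coding genes with a start in a peak of unique sequence. The alphaTub84B peak was wider than 20.3% and the Hsc70-4 peak wider than 43.3% of the 640 peaks that cover a start. Every 75 bp word of both peaks occurred once in the genome, so that a read from them has a single place to map to. Base composition differed between them, at 45.8% G+C in alphaTub84B and 35.6% in Hsc70-4. Because width stands beside no height in the list, nothing can be said on how strongly either promoter was occupied.

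Among the unbound cytoskeletal genes, Act5C (FBgn0000042, chrX:5900861-5905399, + strand), one of the cytoplasmic actin genes, came nearest to a peak. The nearest peak began 2533 bp past the end of the gene and 5950 bp from its nearest start, and covered the start of CG12236. The second cytoplasmic actin gene, Act42A (FBgn0000043, chr2R:6013910-6015689, - strand), was the farthest of the 10, at 296944 bp from a peak that covered no gene start. For betaTub56D (FBgn0284243, chr2R:19447319-19451600, - strand), the broadly used beta-tubulin gene, the nearest peak was 4929 bp from the gene and 7209 bp from its nearest start, at RpL11, which encodes a protein of the large ribosomal subunit. The partners of the microtubule dimer thus differed, with a covered start at alphaTub84B and none at betaTub56D.

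The glycolytic pair had no peak. Gapdh1 (FBgn0001091, chr2R:7791901-7793380, - strand) was 123168 bp from the nearest peak, at the start of Cul1, a cullin of ubiquitin ligases. Gapdh2 (FBgn0001092, chrX:15868145-15869661, + strand) was 22284 bp from the nearest peak, at shi, which encodes dynamin. Hsp83 (FBgn0001233, chr3L:3192969-3197059, + strand), the second chaperone gene of the group, was 25843 bp from a peak at RpL28, another ribosomal protein gene.

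The polyubiquitin genes had no peak either. Ubi-p63E (FBgn0003943, chr3L:3899259-3903184, - strand) was 235731 bp from the nearest peak, which covered the divergent starts of Ras64B, a small GTPase gene, and Rop, a gene of the Sec1/Munc18 family. Ubi-p5E (FBgn0086558, chrX:6276876-6279647, - strand) was 9515 bp from a peak at schlank, which encodes a ceramide synthase. Over the 8 unbound genes the distance from the gene to the nearest peak had a median of 24063.5 bp, with 3 genes under 10 kb and 3 over 100 kb. In 7 of the 8, the nearest peak covered the start of another gene.

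**Figure D2:**
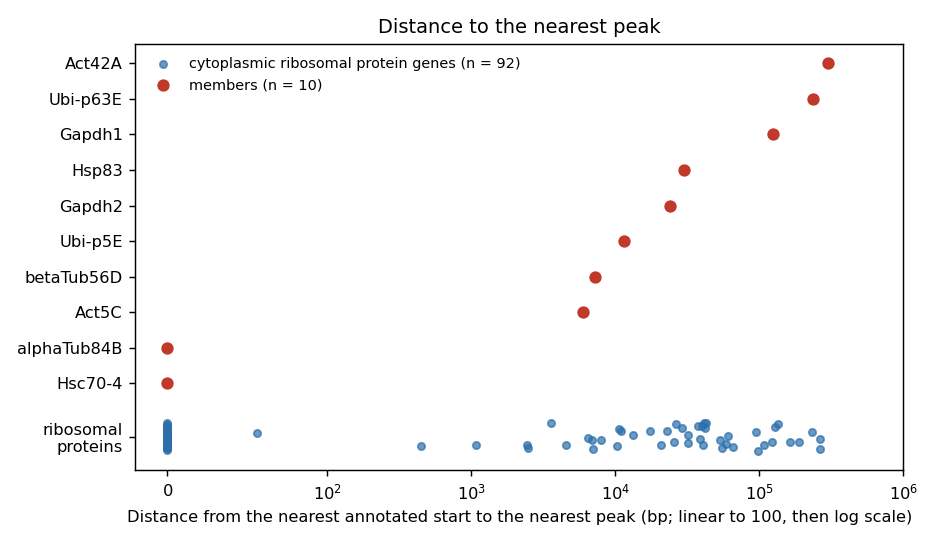
Distance in bp from the nearest annotated start of each gene to the nearest peak (linear to 100 bp, then logarithmic) for the 10 genes (red) and the 92 cytoplasmic ribosomal protein genes (blue, spread vertically for display). alphaTub84B and Hsc70-4 sit at 0, and the other 8 genes lie between 5950 bp (Act5C) and 296944 bp (Act42A).

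Repeated sequence did not distinguish bound from unbound starts. In the 300 bp on each side of a start, 100% of the 75 bp words were unique at 22 of the 24 starts and 98.5% at both starts of Hsp83. Within the transcribed region the polyubiquitin genes differ from the others, since 57.7% of the words of Ubi-p63E and 67.5% of those of Ubi-p5E were unique. Their proteins hold 10 and 7 exact copies of the 76-residue ubiquitin unit. Where the repeated words lie within these genes was not mapped, while the sequence around their starts was unique. In the other 8 genes at least 97.5% of the words of the gene were unique.

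Near-identical proteins did not share a score in every case. Act5C and Act42A are identical in 374 of 376 residues and Gapdh1 and Gapdh2 in 323 of 332, and all 4 genes had no peak. alphaTub84B and its paralog alphaTub84D are identical in 448 of 450 residues, and the first had a covered start and the second had no peak. Over the 19 paralogs of the 10 genes, 0 of 4 actin genes, 0 of 6 tubulin genes, 0 of 7 genes of the Hsp70 and Hsp90 families and 1 of 2 ubiquitin fusion genes had a start inside a peak, and several of these, such as the muscle actins and testis tubulins, are known for expression in other tissues. The bound ubiquitin gene was RpS27A, whose peak of 361 bp at chr2L:10408079-10408439 was centred at -93 bp and is shared with the start of Ip259. RpL40 was 229682 bp from the nearest peak. Ubiquitin is thus encoded by 4 genes in these lists, of which the single bound one is a ribosomal protein gene.

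Of the 92 cytoplasmic ribosomal protein genes, 46 had a start inside a peak (50.0%, Wilson 39.99% to 60.01%), 0 had a peak in the body only and 46 had neither. The interval of the 10 genes, 5.67% to 51.0%, overlaps that of the ribosomal protein genes. Its lower end nearly equals the 5.68% of all protein-coding genes and lies above the 4.94% of all annotated genes. As the 10 were not a random sample, these ends are no test and do not place the group. The 92 were taken by symbol and not by transcript level, so strong transcription is not assured for each. They include RpL7-like, RpL22-like, RpL24-like and RpS28-like, which had no peak. Whether the products of these genes are part of the ribosome was not checked. For unbound ribosomal protein genes the median distance to the nearest peak was 33631 bp, of the same order as for the 8 unbound genes here.

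Other gene lists were scored in the same way. Of 18 other broadly transcribed genes, 9 had a start inside a peak (50.0%, 29.03% to 70.97%). These were the translation genes eEF1alpha1, eIF4A, pAbp and Rack1, the cyclophilin gene Cyp1, the peroxiredoxin gene Prx2, the ADP/ATP carrier gene sesB, whose peak also covers a start of Ant2, 14-3-3epsilon, and tsr, which encodes the actin-depolymerising factor cofilin. Of 20 cytosolic chaperones and cochaperones, which work with Hsp83 and Hsc70-4, 3 were bound (15%): CCT2 of the chaperonin that folds actin and tubulin, the Hsp90 cochaperone p23, and the Hsp40 gene Droj2, in a peak shared with mRpS21. Of 10 glycolytic genes other than the Gapdh pair, Pglym78, a phosphoglycerate mutase gene, was bound in a peak shared with CG11882. Of 5 genes widely used as references for quantitative PCR, RpL32, itself a ribosomal protein gene, was the bound one.

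**Figure D3:**
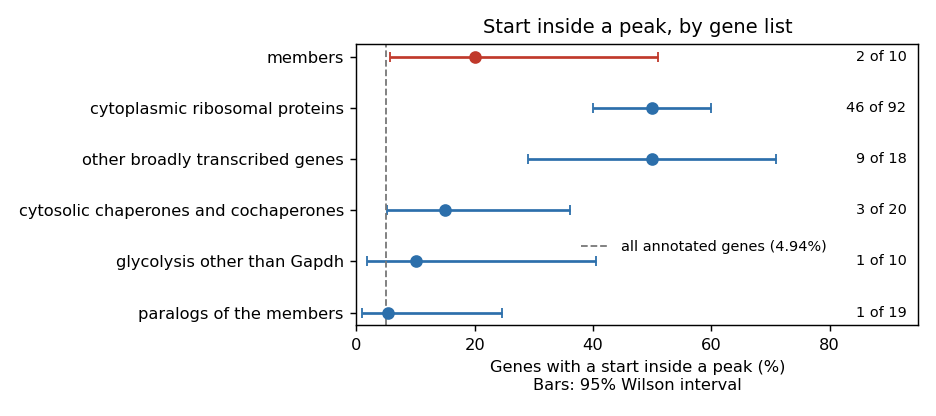
Percentage of genes with a start inside a peak in each list, with the 95% Wilson interval as bars, the counts at the right and the share of all annotated genes as a dashed line. The 10 genes (20%, red) stand between the 50.0% of ribosomal protein and other broadly transcribed genes and the lists of chaperones (15%), glycolysis (10%) and paralogs (5.26%), with intervals that overlap all of them.

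The lists differ in what they hold and were chosen by knowledge of the genes, not by a measured transcript level. They were also chosen with earlier results of these data known, and Rack1 is a bound gene that the paper itself examined. The shares, their intervals and their order are therefore a description and no independent comparison. RpS27A and RpL40 count both as paralogs and as ribosomal protein genes, RpL32 also counts in both its lists, and Hsp110 is in the paralog and the chaperone list.

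The position of the member peaks was set against that of other peaks. At the 46 ribosomal protein genes the peak centre had a median of -84 bp from the nearest covered start (quartiles -125.6 and -48.1), and 13 of 46 centres lay farther upstream than that of alphaTub84B and 9 of 46 farther than that of Hsc70-4. The downstream edge lay at a median of 84 bp past the start in ribosomal protein genes, and in 1 of 46 it lay at or below the 18 bp of alphaTub84B or the 15 bp of Hsc70-4. Among 673 protein-coding genes with a start in a peak of unique sequence the downstream edge had a median of 80 bp (quartiles 50 and 109), and it lay at or below that of alphaTub84B in 48 genes (7.13%) and at or below that of Hsc70-4 in 33 genes (4.90%). The member peaks therefore ended close to the start in comparison with most peaks, and their widths of 264 and 303 bp lay within the 196 to 794 bp of ribosomal protein genes. With 2 peaks no test of this difference was made.

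**Figure D4:**
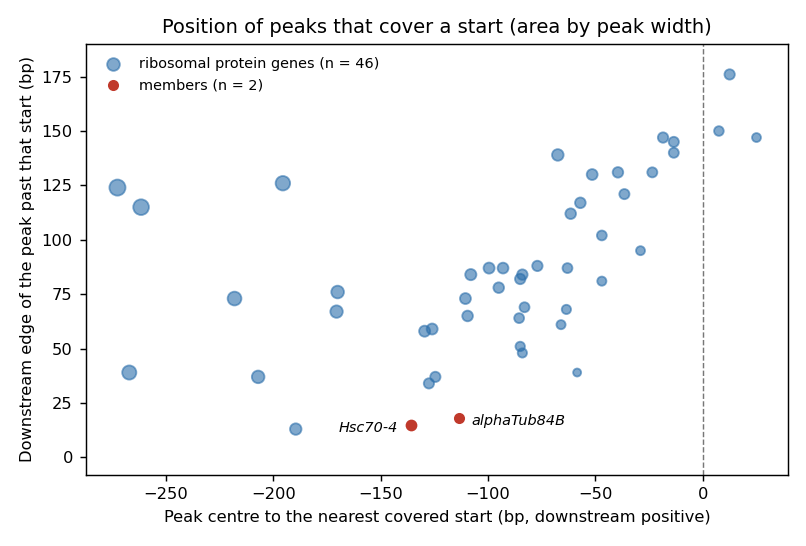
Distance in bp from the peak centre to the nearest covered start (horizontal) and position in bp of the downstream edge past that start (vertical) for alphaTub84B and Hsc70-4 (red) and 46 ribosomal protein genes (blue), with the area of a point set by peak width. The member peaks lie at the bottom of the plot with edges at 18 and 15 bp, where 1 ribosomal protein gene, RpLP2 with 13 bp, is found beside them.

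The short reach into the gene also bears on the score. Under a requirement of at least 50 bp of overlap with the gene, 0 of the 10 genes would count, since the peaks hold 19 and 16 transcribed bases, while 39 of the 92 ribosomal protein genes would still count. With peaks at or above the median width of 365 bp, 0 of the 10 genes and 15 ribosomal protein genes would count. Starts within 100 or 250 bp of a peak gave the same 2 genes.

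Core promoter motifs were compared at 1 start per gene, the covered start or otherwise the first one. A TATA box word (TATAAA or TATATA, 20 to 40 bp upstream on the strand of the gene) was found in 6 of the 10 genes, against 3 of 92 ribosomal protein genes (3.26%) and 9.32% of protein-coding genes. The 6 were the bound alphaTub84B and Hsc70-4 and the unbound betaTub56D, Gapdh1, Ubi-p63E and Ubi-p5E. Counting any annotated start added the second start of Hsp83, where TATAAA begins at -30, for 7 of 10 genes beside 11.2% of protein-coding genes. Of the 10 genes, 8 have more than 1 annotated start, against 3700 of the 13986 protein-coding genes. Counts at any start therefore search more sequence per gene in the 10. A window of 15 to 45 bp, chosen after the Act5C match had been seen, gave 8 of 10 beside 13.96%. Act42A and Gapdh2 had no TATA box in either window.

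Other core promoter motifs were each found in at most 1 of the 10 genes at that start. The TCT initiator, searched within 10 bp of the start, was found in 1 of the 10 genes, Gapdh1, where it begins at -3, against 28 of 92 ribosomal protein genes (30.4%) and 0.658% of protein-coding genes. A DRE (TATCGATA, either strand, within 100 bp) was found in 1 of 10, Ubi-p5E at 72 bp downstream, against 28.3% and 7.83%. Motif 1 was found in 1 of 10, Act42A, against 8.70% and 3.95%, and Motifs 6 and 7 in 0 of 10, against 5.43% and 9.78% of ribosomal protein genes and 1.68% and 7.60% of protein-coding genes. The initiator, TCA followed by G or T, then T and a pyrimidine, within 10 bp of the start, was in 0 of 10 at that start, against 1.09% of ribosomal protein genes and 12.1% of protein-coding genes. The covered starts of alphaTub84B and Hsc70-4 held no match to any of these 6 motifs.

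Other words were searched for their known part in some of these genes. GAGAG, the word bound by GAGA factor (either strand, within 100 bp), was in 5 of 10 genes against 22.5% of protein-coding genes, and in 7 of 10 against 28.6% at any start. The heat shock element word, GAANNTTC or TTCNNGAA within 300 bp upstream, was in 2 of 10 at the used start, Hsc70-4 and Ubi-p5E, against 15.6% of protein-coding genes. At any start it was in 4 of 10 against 19.7%, with the second start of Hsp83 at -68 and Ubi-p63E added. The E-box CAGCTG (either strand, within 100 bp) was in 1 of 10, Ubi-p5E, against 13.8%, and in 3 of 10 against 17.4% at any start, with betaTub56D and Ubi-p63E added. The counts at any start again come from more searched sequence per gene in the 10.

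**Figure D5:**
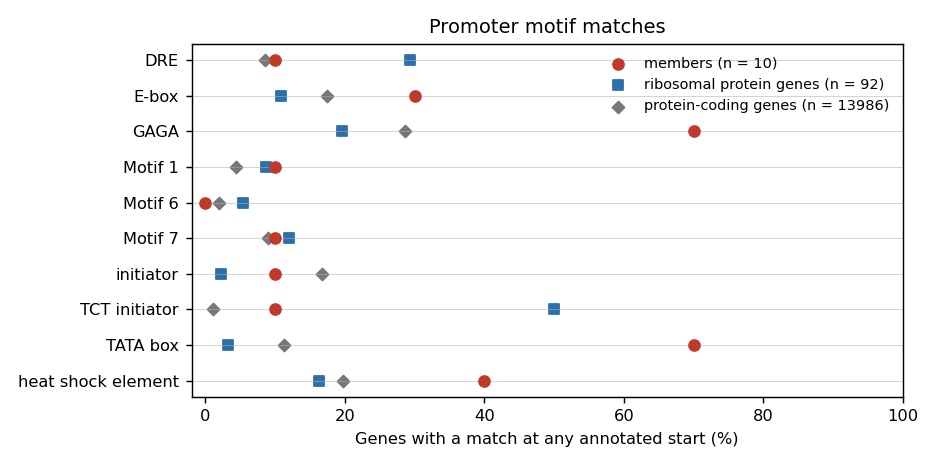
Percentage of genes with a match at any annotated start, for the 10 genes (red circles), the 92 cytoplasmic ribosomal protein genes (blue squares) and all 13986 protein-coding genes (grey diamonds). TATA box and GAGA words are found in 70% of the 10 genes each, and the TCT initiator in 50% of ribosomal protein genes.

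The share of genes with a peak was also computed for each motif across all protein-coding genes. A start in a peak of unique sequence was found in 26 of 1306 genes with a TATA box at the first start (1.99%, Wilson 1.362% to 2.901%) and in 647 of 12680 genes without one (5.10%, 4.73% to 5.50%), and alphaTub84B and Hsc70-4 are among the 26. A start in a peak of unique sequence was found in 10.3% of genes with a DRE against 4.34% without, and in 17.6% of genes with a TCT initiator (11.1% to 26.7%) against 4.73% without, and over all peaks the shares were 11.3% against 5.20% and 17.6% against 5.61%. Over all peaks the order was the opposite, with 106 of the 1306 genes with a TATA box (8.12%, 6.76% to 9.72%) and 689 of the 12680 without one (5.43%, 5.05% to 5.84%). The 80 genes with a TATA box that are added by peaks of repeated sequence all carry symbols of histone genes, which lie in near-identical copies. The direction of the TATA box comparison therefore depends on these copies, and no test of the difference was made. At the covered start or otherwise the first, 15 of the 17 start-bound protein-coding genes with a TCT initiator were ribosomal protein genes. By that rule bound genes with this motif were largely of that class. The 17.6% was scored at the first start only (16 of 91 genes), and how far it restates that class was not counted. Within the ribosomal protein genes, 15 of the 28 with a TCT initiator were bound. The same held for 11 of the 26 with a DRE, beside 46 of all 92. In peaks of unique sequence, shares were also higher with Motif 1 (11.7% against 4.53% without), Motif 6 (9.01% against 4.74%) and Motif 7 (8.98% against 4.47%). They were lower with an initiator (1.59% against 5.26%), an E-box (2.60% against 5.16%) and GAGA (3.38% against 5.23%). With a heat shock element word they were alike (4.86% against 4.80%). Over all peaks the shares for GAGA came closer, at 5.29% with and 5.80% without. Of the 60 genes with GAGA added there, 59 carry histone symbols. In peaks of unique sequence a lower share is thus not particular to the TATA box. Whether the motifs have a part in which of the 10 genes had a peak was not tested.

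The surroundings of the genes were also described. A divergent start of another gene within 1000 bp was present at 8 of the 10, all but Act42A and Gapdh2, from 33 bp at Ubi-p5E to 904 bp at betaTub56D, and 0 of these 8 divergent starts lay in a peak. Among protein-coding genes, 8.41% of those with such a neighbour (449 of 5336) and 4% of those without (346 of 8650) had a start in a peak. Within 100 kb of the 10 genes, 17 of 402 other genes (4.23%) had a start inside a peak, near the 4.94% of all genes. By chromosome, both bound genes were the 2 members on 3R, where 4.44% of protein-coding genes had a covered start, and 0 of 3 members on X had one, where the share was 7.88%.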

How the data were processed

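ChIP-seq of Myc-CycGΔP was available for 6 libraries, grouped by the genotype and sample type in their labels. The value analysed, of the unit other, is the start and end of each of 3363 peaks in 1 deposited list, which the authors made from quality-filtered reads aligned to dm6 with Bowtie2 2.1.0, MACS2 2.1.0 calls for each Myc-CycGΔP ChIP replicate against its own input, selection of peaks reproducible between the replicates, and merging with bedtools. Default alignment places a read that matches several sites at 1 of them. The calling does not name the mock ChIP, and its reads were not used here.

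Genes and TSSs came from the Ensembl release 115 annotation (FlyBase 6.54) without transposable elements, a later release than that of the study on the same build, and sequence from RefSeq. Coordinates count from 1. A TSS was scored as covered when it lay inside a peak, and a gene body when 1 bp or more of it was shared with a peak. Distances are negative upstream. Sequence was called unique where a 75 bp word occurred once in dm6 on both strands, and a peak of unique sequence had at least 90% such words. Shares have 95% Wilson intervals, which cover counting error over genes only. No test was made, since the list holds no value per sample. The 10 genes, the comparison lists, the motifs and the naming rule (the 10 genes, RpL40 and RpS27A, genes sharing or nearest to a peak of interest, and bound genes of the lists) were chosen with earlier results of these data known. Alternatives were TSS margins of 100 and 250 bp, the first TSS, coding transcripts, wider peaks, unique peaks, overlaps of 1 and 50 bp and other motif windows. Ribosomal protein genes were taken by symbol (92, without RpLP0-like and Rack1). The code was tested on simulated data. Python 3.11.15, numpy 2.4.6, scipy 1.17.1, statsmodels 0.14.6, Biopython 1.88 and matplotlib 3.10.9 were used.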

Additional observations from a re-analysis of the deposited data

How the results depend on the processing

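The 2 covered genes, alphaTub84B and Hsc70-4, were found under 6 of 8 alternatives to the score: margins of 100 and 250 bp, the first TSS only, starts of protein-coding transcripts only, peaks of unique sequence, and overlap of the gene by at least 1 bp. With peaks at or above the median width of 365 bp, 0 of the 10 genes, 15 ribosomal protein genes and 3 of the other broadly transcribed genes counted. Of all genes 370 (2.02%) counted, and 1685 of 3363 peaks were left. With at least 50 bp of overlap, 0 of the 10 genes counted, because the peaks hold 19 and 16 bases of the genes, beside 5.52% of all genes. Under the other alternatives ribosomal protein genes gave 39 to 47, the other broadly transcribed genes 7 to 9 and all genes 710 to 1213. The TATA box count was 6 or 7 of 10 throughout at 1 start per gene. With 250 bp on each side DRE was in 2 genes, GAGA in 8 and Motif 7 in 1. Over all peaks instead of those of unique sequence, the share of protein-coding genes with a covered start was 8.12% with a TATA box and 5.43% without, against 1.99% and 5.10%, an order that 80 histone genes reversed. The alternatives for the other broadly transcribed genes, the motif counts at any annotated start, the wider TATA box window and the shares by motif over all peaks were chosen after seeing the data. Leaving out a replicate was not possible, since the list pools both. No paired analysis was possible because no value comes from a test and the list has no column per sample.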
